A study of Homo sapiens with 7 samples.

Results

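The baseline open chromatin of vehicle-treated LUHMES neurons comprised 21191 regions that were accessible in all 3 vehicle libraries. LUHMES is an established human mesencephalic cell line, immortalised with a v-myc transgene that tetracycline switches off, so that the cells leave the cell cycle and become neurons. The cells carried the genotype labelled WT and had differentiated for 6 days with dibutyryl-cAMP at 1 mM, GDNF at 2 ng/mL and tetracycline at 1 µg/mL. They received DMSO, the solvent that served as vehicle, and no inhibitor. The libraries are called vehicle 6, 7 and 8 after the endings diff6, diff7 and diff8 of their titles. The set consists of the intervals of vehicle 7, the shortest of the 3 lists, that overlapped an interval of vehicle 6 and an interval of vehicle 8 by at least 1 bp, on chromosomes 1 to 22 and X. It held 64.6% of the 32828 regions of vehicle 7, out of 792140 regions in the 7 lists of the series. The other 4 libraries, which were treated with inhibitors, were counted in that total and are not compared here. All libraries derive from a single cell line, and the labels name the cells dopaminergic neurons.

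ATAC-seq maps DNA that the Tn5 transposase can reach. In most cells such DNA lies at the starts of genes, where nucleosomes are displaced for transcription, and at distal elements such as enhancers, which vary more between cell types. CpG-rich promoters of widely used genes are commonly accessible whether or not the gene is highly transcribed, whereas many tissue-specific genes depend on distal elements. A dopaminergic neuron is defined by transcription factors such as NR4A2, PITX3 and LMX1B, by the enzymes that make dopamine and by the transporters that store and recover it.

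The promoter sequences below are shown because they carry the contrasts described in the results. Each is the RefSeq window (GRCh38.p14) of 250 bases before and 50 bases after a listed start, 5′ to 3′ on the gene's strand. Capitals mark matches, on either strand, to the GC box (GGGCGG), the CCAAT box (CCAAT) and the E-box CAGCTG, and overlapping matches run together. TUBB3, which encodes neuronal β-III tubulin, has both a listed start without a baseline region and a listed start with one.
TUBB3, upstream start, chr16:89921675-89921974, plus strand, no baseline region: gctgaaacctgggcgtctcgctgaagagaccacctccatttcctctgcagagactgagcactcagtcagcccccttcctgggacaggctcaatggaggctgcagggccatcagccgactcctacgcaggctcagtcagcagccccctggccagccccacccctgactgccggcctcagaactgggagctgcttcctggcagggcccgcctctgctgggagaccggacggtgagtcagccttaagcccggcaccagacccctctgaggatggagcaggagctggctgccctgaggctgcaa
TUBB3, downstream start, chr16:89923092-89923391, plus strand, baseline region: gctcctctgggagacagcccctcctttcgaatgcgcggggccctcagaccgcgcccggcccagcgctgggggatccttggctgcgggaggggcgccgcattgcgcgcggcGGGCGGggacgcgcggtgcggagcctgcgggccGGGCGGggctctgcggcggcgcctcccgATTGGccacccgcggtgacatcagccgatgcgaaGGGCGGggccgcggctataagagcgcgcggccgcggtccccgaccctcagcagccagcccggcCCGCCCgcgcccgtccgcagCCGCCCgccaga
The windows of ARRDC4, OSBP and DCBLD2 belong to the strongest promoter regions of the set.
ARRDC4, chr15:97960453-97960752, plus strand: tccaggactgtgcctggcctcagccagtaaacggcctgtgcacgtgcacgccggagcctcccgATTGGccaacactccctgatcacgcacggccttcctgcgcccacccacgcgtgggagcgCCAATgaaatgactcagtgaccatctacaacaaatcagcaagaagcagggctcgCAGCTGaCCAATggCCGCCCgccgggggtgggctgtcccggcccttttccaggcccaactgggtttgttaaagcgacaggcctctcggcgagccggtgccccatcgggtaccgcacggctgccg
OSBP, chr11:59615725-59616024, minus strand: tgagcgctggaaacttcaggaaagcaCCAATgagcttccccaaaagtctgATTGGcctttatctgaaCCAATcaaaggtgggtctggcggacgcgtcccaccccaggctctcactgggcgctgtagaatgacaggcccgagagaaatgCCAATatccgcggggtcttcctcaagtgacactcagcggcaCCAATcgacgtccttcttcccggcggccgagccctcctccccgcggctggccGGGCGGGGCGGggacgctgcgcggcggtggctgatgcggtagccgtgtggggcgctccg
DCBLD2, chr3:98901646-98901945, minus strand: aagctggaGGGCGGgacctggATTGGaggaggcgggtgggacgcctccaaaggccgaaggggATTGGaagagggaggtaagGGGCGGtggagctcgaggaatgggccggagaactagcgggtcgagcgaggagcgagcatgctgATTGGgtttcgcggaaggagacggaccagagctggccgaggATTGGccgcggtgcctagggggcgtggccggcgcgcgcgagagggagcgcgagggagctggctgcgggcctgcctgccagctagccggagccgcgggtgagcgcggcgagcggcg
PITX3, LMX1B and ALDH1A1 are genes of dopaminergic neurons, chosen for printing after their values were seen. PITX3 had a baseline region over its window, and LMX1B and ALDH1A1 had no region there in any vehicle library.
PITX3, chr10:102241463-102241762, minus strand: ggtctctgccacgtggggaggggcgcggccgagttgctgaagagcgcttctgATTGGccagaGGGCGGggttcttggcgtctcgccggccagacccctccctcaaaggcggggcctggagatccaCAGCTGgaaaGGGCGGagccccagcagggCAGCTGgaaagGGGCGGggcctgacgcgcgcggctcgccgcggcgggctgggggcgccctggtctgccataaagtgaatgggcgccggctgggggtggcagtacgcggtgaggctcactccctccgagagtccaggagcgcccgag
LMX1B, chr9:126613678-126613977, plus strand: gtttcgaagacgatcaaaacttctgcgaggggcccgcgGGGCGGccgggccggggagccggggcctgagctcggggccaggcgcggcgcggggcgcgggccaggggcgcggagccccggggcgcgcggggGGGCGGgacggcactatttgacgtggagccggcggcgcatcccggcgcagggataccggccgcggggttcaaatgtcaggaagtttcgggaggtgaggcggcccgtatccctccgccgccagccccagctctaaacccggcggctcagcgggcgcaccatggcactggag
ALDH1A1, chr9:72953004-72953303, minus strand: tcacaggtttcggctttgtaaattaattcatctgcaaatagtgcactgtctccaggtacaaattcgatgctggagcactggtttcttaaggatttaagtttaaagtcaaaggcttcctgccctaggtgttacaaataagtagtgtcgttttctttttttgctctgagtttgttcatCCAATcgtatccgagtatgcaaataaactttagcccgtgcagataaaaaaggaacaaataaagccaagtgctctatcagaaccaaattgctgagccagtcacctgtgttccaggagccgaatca

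The 3 lists differed mostly in length. Vehicle 6 held 53398 regions, vehicle 7 held 32828 and vehicle 8 held 159902, which spanned 25.9, 14.9 and 78.5 Mb. The median width was 328 ± 9.54 bp (SD, n = 3). The deposited fold enrichment of each library was a whole multiple of a fixed step, 0.670 in vehicle 6, 0.621 in vehicle 7 and 0.411 in vehicle 8, for 100% of regions at a tolerance of 0.02 steps. MACS2 computes the fold as the read pileup plus 1 over the background plus 1, so the number of steps minus 1 gives the pileup at the summit. The background implied by the steps was 0.492, 0.611 and 1.43 reads in vehicle 6, 7 and 8, a measure of relative depth. Vehicle 7 thus had a shorter list than vehicle 6 at a higher implied background, and the reason was not tested. A region needed at least 5, 6 and 7 steps to be listed in vehicle 6, 7 and 8, and the median baseline region had 13, 11 and 46.

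The set was bounded mainly by vehicle 7. Of the vehicle 7 regions, 65.05% were met by vehicle 6 and 85.8% by vehicle 8. Of the 11637 that stayed outside, 6991 were met by vehicle 8 alone, 162 by vehicle 6 alone and 4484 by neither. Seen from the longer lists, the set met 38.0% of the vehicle 6 regions and 12.2% of the vehicle 8 regions. With vehicle 7 left out, 40583 regions of vehicle 6 met vehicle 8, over 1.5 times the number in the set. At the 1 bp limit, 225 baseline regions had less than 10% of their length covered in at least 1 other library, with a median fold of 4.96 in vehicle 7. Just outside it, 752 vehicle 7 regions lay within 200 bp of a region in both other libraries, overlapping one in at most 1 of them. Their median fold was 4.34.

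Sharing followed strength. The vehicle 7 regions were ordered by −log10 p and divided into 10 classes of equal size. Of the strongest class 99.7% were in the set, of the fifth 72.5% and of the weakest 19.9%. Width and location changed along the same order. The median width fell from 918 bp in the strongest class to 200 bp in the weakest, and the share of regions at a gene start from 74.0% to 13.2%. Regions near the detection limit of vehicle 7 were therefore the ones most often missing from the set, as the plot of vehicle 7 regions by strength shows.

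**Figure D1:**
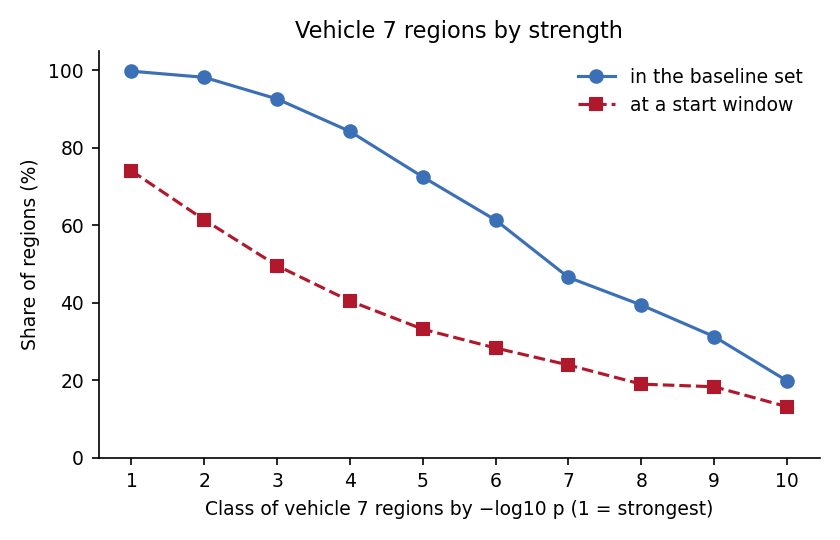
Share of vehicle 7 regions (y axis, %) in the baseline set (circles) and at the start window of a protein-coding gene (squares), by class of equal size in the order of −log10 p (x axis, 1 is strongest of 10). The share in the set goes from 99.7% to 19.9% and the share at a start window from 74.0% to 13.2%.

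Baseline regions lay at gene starts far more often than the regions outside the set. A region counted as a promoter region when it came within 1000 bp of a listed start of a protein-coding gene, or of either end of a gene without a listed start. By this definition 10236 of 21191 baseline regions (48.3%) were promoter regions, 5295 (25.0%) lay elsewhere in a gene body and 5660 (26.7%) were intergenic. Among the vehicle 7 regions outside the set, 13.99% were promoter regions, 43.7% lay in gene bodies and 42.3% were intergenic. Points placed every 1 kb along the chromosomes fell into start windows in 1.71% of cases. In the full lists the promoter share was 23.2%, 36.1% and 10.9% in vehicle 6, 7 and 8, lowest in the longest list. Because membership follows strength and promoter regions were stronger, the share in the set and the choice of the set are not independent. Without vehicle 7 the promoter share was 29.9%.

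**Figure D2:**
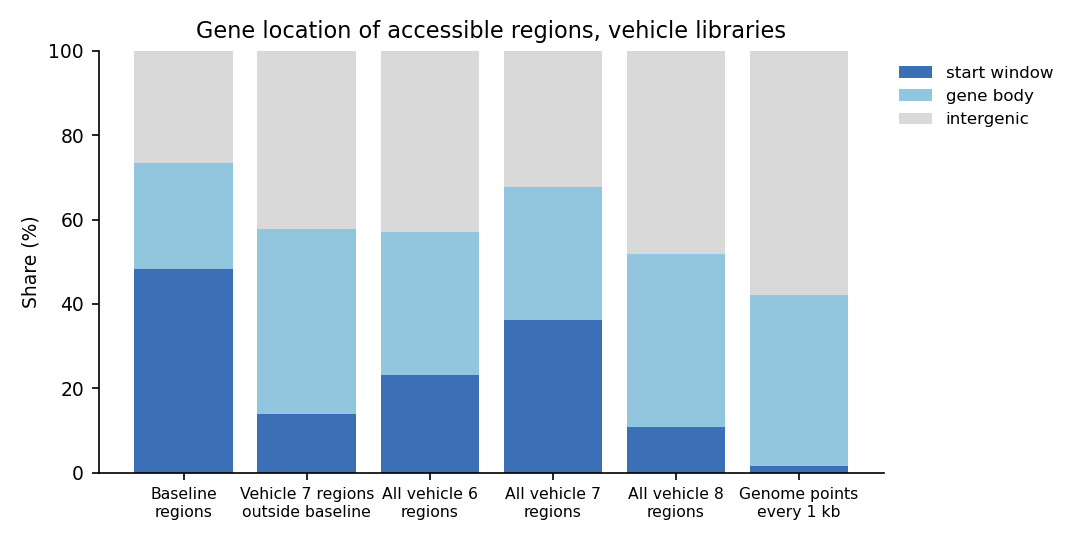
Shares (y axis, %) of regions at a start window, elsewhere in a gene body or intergenic, for the baseline set, the vehicle 7 regions outside it, the full list of each vehicle library and points every 1 kb of the genome. The start-window share is 48.3% in the set, 13.99% outside it and 1.71% for the genome points.

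Promoter regions were wider and stronger than the other classes. Their median width in vehicle 7 was 612 bp, against 332 bp for gene-body and 340.5 bp for intergenic regions. Of 2574 baseline regions of at least 1 kb, 2106 (81.8%) were promoter regions. The same regions were broader in the other libraries, with a median of 656 bp in vehicle 6, 437 bp in vehicle 7 and 1201 bp in vehicle 8 over the whole set, and the overlapping vehicle 8 interval was the wider for 98.6% of regions. Width therefore describes a region only within a library. The median fold at promoter regions was 10.1, 8.07 and 22.6 in vehicle 6, 7 and 8, at gene-body regions 7.37, 6.21 and 16.4, and at intergenic regions 7.37, 6.21 and 16.0. Each library placed promoter regions highest and the other classes close together. Over the 21191 regions the Spearman correlation of fold was 0.670 between vehicle 6 and 7, 0.794 between 6 and 8 and 0.705 between 7 and 8, given as a description across regions of the same DNA.

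Summits sat just upstream of transcription starts. For 8709 promoter regions with a listed start in reach, the vehicle 7 summit lay a median of 37 bp upstream, at position -37 with an interquartile range of -136 to 79. Of these, 73.7% lay within 250 bp of the start and 59.5% upstream of it. A promoter region could serve several genes: 1313 regions reached 2 protein-coding genes and 40 reached more, together 13.2% of promoter regions. Of the 1003 pairs in which both genes had listed starts on a single strand, 883 (88.0%) were transcribed away from each other, as in bidirectional promoters. Regions at gene pairs had a median width of 716 bp and those at single genes 598 bp.

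The baseline set reached the start window of 10130 of 19974 protein-coding genes, the 50.7% against which each gene list below is read. Of the remaining genes, 2166 (10.8%) had only a distal baseline region, in the gene body or with that gene as the nearest within 100 kb, and 7678 (38.4%) had neither. The share was 53.8% of the 15812 genes with a listed start and 39.1% of the 4162 genes whose ends were used instead. Single libraries marked 59.6%, 56.3% and 76.1% of genes in vehicle 6, 7 and 8, and 2559 genes had a region in vehicle 8 alone. No vehicle library had a region at the start window of 4655 genes. Gene length moved with the share: 32.8% of genes up to 10 kb long had a baseline region at the start window, 54.6% of those of 10 to 100 kb, 68.3% of those of 100 to 500 kb and 69.4% of longer genes.

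The sequence of promoter windows differed with accessibility. Of 22012 listed windows of 300 bases, none of them on chromosome 8, 9792 were overlapped by a baseline region. These had a GC content of 65.8% ± 8.44 (SD over windows) against 57.0% ± 13.2 in the others. The median ratio of observed to expected CpG was 0.857 and 0.430. By the number of vehicle libraries with a region over the window, the mean GC content was 51.7% for 0 libraries, 62.8% for 1, 64.8% for 2 and 65.9% for 3. The share of windows with a baseline region was 2.00% below 40% GC and 64.5% at 70 to 75% GC. In windows of at least 75% GC it was lower, at 52.5%, where vehicle 6 covered 64.4%, vehicle 7 58.7% and vehicle 8 89.7%.

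**Figure D3:**
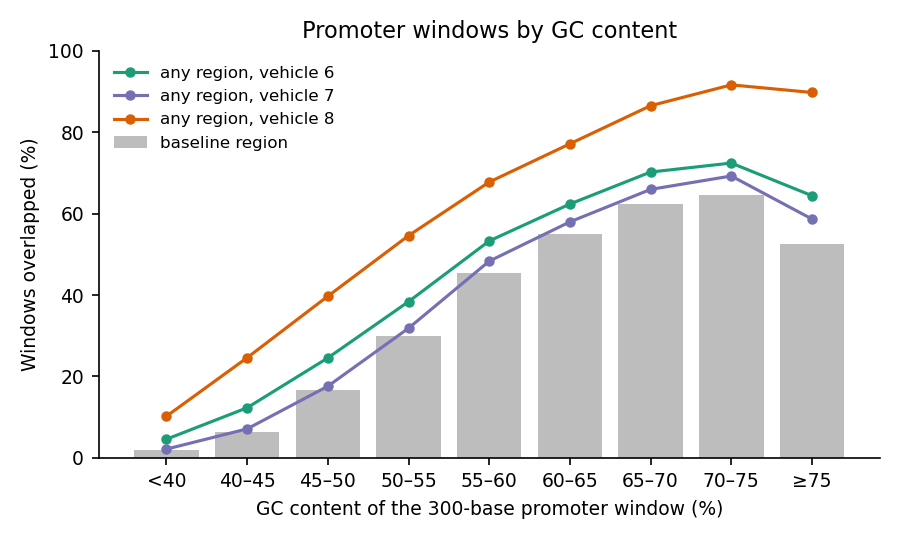
Share of 300-base promoter windows (y axis, %) overlapped by a baseline region (bars) and by any region of each vehicle library (lines), by GC content of the window (x axis, %). Shares climb to 70 to 75% GC, where 64.5% of windows have a baseline region, and vehicle 8 lies above the other libraries in every class.

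Matches to core promoter motifs followed the same division. The GC box, bound by SP1 and related factors, was present in 74.8% of windows with a baseline region, in 41.4% of the others and in 56.3% of all windows. The CCAAT box, bound by NF-Y, was present in 38.7%, 31.4% and 34.7%. The NRF1 motif GCGCANGCG, of a factor that controls many mitochondrial genes, was present in 15.5%, 4.84% and 9.59%, and the ETS motif CCGGAAG in 19.9%, 7.01% and 12.8%. The TATA box, searched as TATAAA, went the other way, with 4.04%, 13.9% and 9.49%. The E-box CAGCTG, bound by proneural factors, was present in 17.1% of windows with a baseline region and 18.7% of the others. The motif AAAGGTCA, bound by NR4A receptors, was present in 0.694% and 1.31%. Base composition alone changes such counts, so windows of 60 to 70% GC were also taken alone. There the GC box was present in 75.6% of 4164 windows with a baseline region and 60.5% of 2937 without, the CCAAT box in 41.0% and 26.8%, the NRF1 motif in 18.1% and 8.04% and the ETS motif in 22.6% and 10.998%. The TATA box was present there in 3.03% and 5.52% and the E-box in 17.6% and 22.3%. The motif AAAGGTCA was present there in 0.768% and 0.715%, so the difference seen over all windows was not found at like base composition. A match describes letters in a window and not binding.

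The strongest promoter regions were those with the best lowest rank of fold over the 3 libraries. ARRDC4, an arrestin-domain gene that glucose induces, came first with folds of 68.4, 44.7 and 117.5 in vehicle 6, 7 and 8 (chr15:97960051-97961758). OSBP, which encodes an oxysterol-binding protein, followed with 61.7, 32.9 and 85.9 (chr11:59614838-59616725). The next were the shared start region of KYAT3 and RBMXL1 with 46.9, 32.9 and 103.1, FHIP1B with 46.9, 32.3 and 95.7, and DCBLD2 with 46.2, 32.3 and 83.4. HSPA13, MCM3, the pair NUP98 and PGAP2, FAR1 and PIP4P1 completed the first 10, with folds of at least 44.2, 28.5 and 83.8 in vehicle 6, 7 and 8. These genes serve general cell functions such as nuclear transport (NUP98) and DNA replication (MCM3), and none belongs to a neuronal list used here. In the windows printed above, the CCAAT box matched 3 times at ARRDC4, 5 times at OSBP and 4 times at DCBLD2. The KYAT3 window, not printed, had 1 CCAAT box and 5 GC boxes. Of the 1000 strongest regions of the set, 825 were promoter regions.

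The widest promoter regions belonged to other genes. The start window of TRIB1, a regulator of transcription factor turnover, lay in a region of 3368 bp (chr8:125429143-125432510) with folds of 23.5, 16.1 and 53.8 in vehicle 6, 7 and 8. PPP3CA, the catalytic subunit of the neuronal phosphatase calcineurin, had a region of 3338 bp (chr4:101345471-101348808) with 26.8, 13.7 and 53.0. RAP2B followed with 3163 bp, RBPJ, the DNA-binding effector of Notch signalling, with 3044 bp, and SGMS1 with 2960 bp. DCUN1D4, SLC6A15, KLF10, PCDH7 and the shared region of HNRNPDL and ENOPH1 measured 2623 to 2823 bp. SLC6A15 encodes a neuronal amino acid transporter and PCDH7 a protocadherin.

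The 4 marker genes of the cells all had a baseline region at the start window. STMN2, a microtubule regulator of growing axons, had folds of 32.8, 14.3 and 47.7 in vehicle 6, 7 and 8, in a region of 1380 bp over its lower-coordinate end (chr8:79610834-79612213). A further region of 1022 bp followed inside the gene, 1412 bp from that end, with folds of 32.8, 13.7 and 47.7. Both regions had the same folds in vehicle 6 and vehicle 8, where a single wider peak can overlap both, so only vehicle 7 separated them. STMN2 was the strongest of the 4 markers in every library. NR4A2, a nuclear receptor required for dopaminergic neurons, had 10.7, 9.31 and 21.8 in a region of 861 bp over its higher-coordinate end (chr2:156332350-156333210). TUBB3 had 6.70, 8.07 and 13.97 in a region of 830 bp (chr16:89922579-89923408). That region covered the downstream of the printed TUBB3 windows, which has a GC content of 79.0%, 5 GC boxes and a CCAAT box. The upstream window, with 65.3% GC and no match to the motifs searched, was overlapped in 1 library.

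SLC6A3, the dopamine transporter gene, was the weakest of the markers. Its region of 234 bp near the higher-coordinate gene end (chr5:1444987-1445220) had folds of 4.69, 3.72 and 10.7 in vehicle 6, 7 and 8. These correspond to summit pileups of 6, 5 and 25 reads, and in vehicle 7 that is the lowest fold in the list. At NR4A2 the pileups were 15, 14 and 52 and at STMN2 48, 22 and 115. Membership of SLC6A3 in the set thus rests on few reads in vehicle 6 and vehicle 7.

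Of 9 transcription factor genes of midbrain dopaminergic neurons, 5 had a baseline region at the start window, or 55.6% against 50.7% of all genes. Besides NR4A2, these were EN1, an engrailed homeobox gene of the midbrain, with folds of 10.1, 5.59 and 21.0 in vehicle 6, 7 and 8, and FOXA1, a pioneer factor, with 11.4, 5.59 and 16.4. OTX2, a midbrain patterning gene, had 7.37, 5.59 and 11.1, and PITX3, which drives TH expression, had 4.69, 4.96 and 8.63. Within every library PITX3 was the weakest of the 5. EN2, FOXA2 and LMX1A had a region at the start window in vehicle 6 and vehicle 8 and none in vehicle 7, with folds of 6.03 and 15.6, 4.69 and 5.75, and 5.36 and 4.11. LMX1B had none in any library although its window, printed above, has 75.3% GC. Without vehicle 7 the count was 8 of 9, so this list depends on that library.

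Most of these 9 genes had a distal baseline region in the body or as nearest gene within 100 kb, against 26.5% of all protein-coding genes. They were EN1, FOXA1, FOXA2, LMX1A, NR4A2 and OTX2. LMX1A held 3 in its gene body with folds of up to 14.1, 7.45 and 18.9 in vehicle 6, 7 and 8, and a further one 36.3 kb beyond the start with 10.7, 8.07 and 25.9. EN1 was the nearest gene of a region 67.2 kb away with 11.4, 8.69 and 21.8. NR4A2 was nearest to a region of 1282 bp at a distance of 8923 bp (chr2:156341644-156342925) with 12.7, 6.83 and 21.4. FOXA1 was nearest to 3 regions 9.8 to 11.6 kb away. Nearness assigns no target.

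Of the genes that make, store and clear dopamine, 5 of 12 had a baseline region at the start window (41.7% against 50.7%), about 1 gene from the share of all genes. Without vehicle 7 it was 7 of 12, where 58.9% of all genes had one. DRD2, the autoreceptor gene, had folds of 6.03, 10.5 and 18.5 in vehicle 6, 7 and 8. GCH1, PTS and SPR, the enzymes of the tetrahydrobiopterin cofactor that tyrosine hydroxylase needs, had 8.04, 6.83 and 17.3, then 8.71, 11.2 and 20.1, and then 6.03, 8.07 and 10.7. All enzymes of cofactor synthesis in the list were thus represented, and SLC6A3 was the fifth gene. TH, which encodes tyrosine hydroxylase, had no region at either end in any vehicle library, and its nearest baseline region lay 18.6 kb away with folds of 7.37, 5.59 and 6.99. SLC18A2, the vesicular monoamine transporter gene, had a region in vehicle 8 alone, with 7.81. ALDH1A1 and MAOB had none in any library, and the printed ALDH1A1 window has 40.3% GC.

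DDC and MAOA had strong baseline regions outside the start window as defined here. DDC, the decarboxylase that forms dopamine, had a region of 600 bp inside the gene (chr7:50531599-50532198), 28.9 kb from the nearest listed start, with folds of 16.8, 13.7 and 33.7 in vehicle 6, 7 and 8. Its own start window had a region in vehicle 6 (5.36) and vehicle 8 (9.04) and none in vehicle 7. MAOA, which degrades dopamine, had a region of 969 bp at 1056 bp from the listed start (chrX:43654275-43655243), just beyond the limit of 1000 bp, with 24.1, 14.3 and 42.7. That region spans the lower-coordinate end of the gene at position 43655006, which is not among the listed starts. The broader regions of vehicle 6 and vehicle 8 reached the listed start window with the same folds, and the vehicle 7 region did not. Both regions were stronger in every library than the start regions of the 5 genes that had one. A region not listed for a gene is below the caller's threshold in that library and is not shown to be closed.

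**Figure D4:**
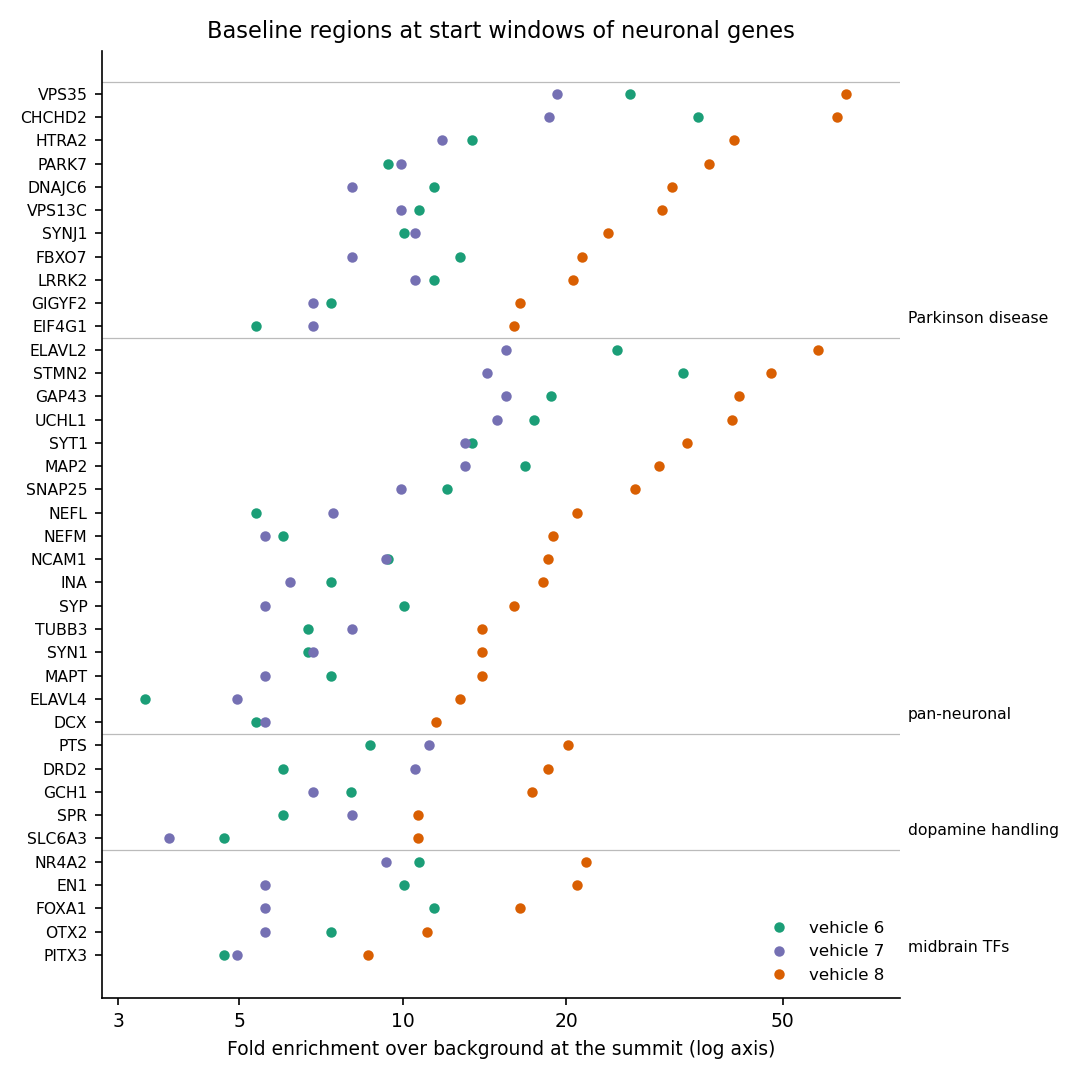
Fold enrichment over background at the summit (x axis, log scale) of the baseline region at the start window of each gene named on the y axis, in vehicle 6, 7 and 8 (colours), grouped by gene list. Genes with such a region are drawn, apart from those not reported here, vehicle 8 is the highest for every gene, PITX3 is lowest in its group in every library and SLC6A3 in vehicle 6 and vehicle 7.

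Pan-neuronal genes had 17 of 20 at the start window (85% against 50.7%). ELAVL2, an RNA-binding protein gene of early neurons, had folds of 24.8, 15.5 and 57.9 in vehicle 6, 7 and 8. GAP43, of axonal growth cones, had 18.8, 15.5 and 41.5, and the ubiquitin hydrolase gene UCHL1 had 17.4, 14.9 and 40.3. Genes of synaptic vesicles followed, with SYT1 at 13.4, 13.0 and 33.3 and SNAP25 at 12.1, 9.93 and 26.7. The lowest values in vehicle 8 belonged to DCX (5.36, 5.59 and 11.5), a microtubule gene of migrating neurons, and ELAVL4 (3.35, 4.96 and 12.7). MAPT, NCAM1, MAP2, SYN1, SYP, INA, NEFL and NEFM were also in the set. ELAVL3, ENO2 and RBFOX3 were not: each lacked a region in 1 library, vehicle 6 for ELAVL3 and vehicle 7 for the others. RBFOX3, which encodes the mature-neuron antigen NeuN, held 3 baseline regions in its gene body.

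Transcription factor genes of neuronal differentiation had 18 of 24 at the start window (75%). NEUROD1 had folds of 12.7, 10.5 and 28.8 in vehicle 6, 7 and 8, and the helix-loop-helix gene NHLH1 had 18.1, 13.7 and 34.9 in a region of 2043 bp. ISL1, a LIM homeobox gene also used by motor and sensory neurons, had 19.4, 14.3 and 44.8, the same vehicle 8 value as POU3F2 (16.1, 14.3 and 44.8). The EBF and ONECUT genes of the list and POU3F3 and POU3F4 were also in the set. MYT1, MYT1L, NEUROD2, NHLH2, POU3F1 and TCF4 were not, and each of these had a region in vehicle 8.

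Axon guidance genes had 18 of 26 at the start window (69.2%) and 53 baseline regions within their bodies, outside start windows. The ephrin receptor genes EPHA5 (22.8, 16.8 and 51.0 in vehicle 6, 7 and 8) and EPHA7 (18.1, 14.9 and 45.6) were the strongest in vehicle 8. The netrin receptor gene DCC had 4.02, 6.21 and 8.22, the lowest in vehicle 8. PLXNA2, a plexin gene, held 8 body regions, ROBO2 held 7 and SLIT1 7, of which SLIT1 had no start region in the set. Long genes have more room for body regions: 81.2% of protein-coding genes over 500 kb held at least 1, against 3.22% of genes up to 10 kb, while the number per Mb of gene was 2.99 and 7.80.

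Genes for receptors of the trophic factor in the medium had a baseline region at a listed start. GDNF signals through RET with its co-receptor GFRA1. GFRA1 had folds of 20.1, 14.3 and 53.8 in vehicle 6, 7 and 8 and RET had 10.7, 9.31 and 27.5. The RET values belong to a region at a listed start well inside the gene (chr10:43105279-43105916), which spans positions 43077069 to 43130351. The neurotrophin co-receptor gene SORT1 had 18.1, 11.2 and 35.8. In all, 4 of 10 genes of this list were in the set (40% against 50.7% of all genes). NTRK2 and NGFR had a region in vehicle 6 and vehicle 8 only, GFRA3 in vehicle 7 and vehicle 8, and GFRA2, GFRA4 and NTRK3 in vehicle 8 only.

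Voltage-gated ion channel genes had 11 of 24 at the start window (45.8%) and 31 body regions. The sodium channel gene SCN9A had folds of 14.1, 13.0 and 36.2 in vehicle 6, 7 and 8. CACNA1D, the L-type calcium channel linked to pacemaking in dopaminergic neurons, had 5.36, 4.96 and 11.1. SCN1A and SCN2A had no region at the start window in any library, and KCNJ6, which encodes the GIRK2 channel of dopaminergic neurons, had one in vehicle 7 and vehicle 8.

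Most Parkinson disease genes were in the set, 15 of 18 (83.3% against 50.7%). VPS35, of the retromer that sorts endosomal cargo, had folds of 26.1, 19.2 and 65.3 in vehicle 6, 7 and 8, and the mitochondrial gene CHCHD2 had 34.9, 18.6 and 62.9. HTRA2, a mitochondrial protease gene, had 13.4, 11.8 and 40.7. PARK7, of the oxidative stress response, had 9.38, 9.93 and 36.6. LRRK2 had 11.4, 10.5 and 20.5. UCHL1, DNAJC6, VPS13C, SYNJ1, FBXO7, GIGYF2 and EIF4G1 were also in the set, the last lowest in vehicle 8 with 16.0. PINK1 had a region in vehicle 6 (4.02) and vehicle 8 (5.75) and none in vehicle 7. PLA2G6 had 7.37 and 16.0 in the same libraries, and ATP13A2 had 9.86 in vehicle 8 alone.

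Genes of general cell functions ranged more widely. Housekeeping genes had 17 of 20 (85%), without CYC1, POLR2A and PSMB2, and genes of the respiratory chain had 19 of 24 (79.2%), without COX5A, COX6C, CYC1, NDUFA9 and NDUFS7. The ATP synthase gene ATP5F1B had folds of 23.5, 14.9 and 50.1 in vehicle 6, 7 and 8. Cytosolic ribosomal protein genes had 60 of 86 (69.8%) and numbered zinc finger genes 365 of 509 (71.7%). Clustered histone genes had 33 of 76 (43.4%). The high share of pan-neuronal genes is thus close to that of housekeeping genes, with the same count of 17 of 20.

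Cell cycle genes had 11 of 16 at the start window (68.8%). CDK1 had folds of 24.8, 14.9 and 56.3 in vehicle 6, 7 and 8 and the replication clamp gene PCNA had 24.8, 22.96 and 51.8. CCNB1, PLK1, CCNA2, CCNB2, TOP2A, BUB1, MCM2, MCM5 and the inhibitor gene CDKN1C were in the set. MKI67 and AURKB had a region in vehicle 6 and vehicle 8, and CCND1, CCND2 and RRM2 in vehicle 8 alone. Accessibility of a start does not measure transcription, and proliferation was not measured. Neural progenitor genes had 7 of 14 (50%), near the share of all genes. PAX6 had 22.8, 18.6 and 39.4, PROM1 14.7, 11.2 and 30.4 and SOX2 4.02, 4.96 and 13.1, while NES and HES5 had a region at the start in vehicle 8 alone.

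Immediate early genes, which activity induces, had 13 of 22 at the start window without inhibitor treatment (59.1%). KLF4 had folds of 28.2, 14.9 and 57.1 in vehicle 6, 7 and 8, EGR1 had 23.5, 11.8 and 41.9 in a region of 2297 bp, and NR4A3 had 18.8, 12.4 and 33.3. NR4A1 was the lowest in each of vehicle 6, 7 and 8 with 4.02, 4.96 and 6.99. JUNB had a region in each library and no vehicle 7 region shared with both others. ATF3 had none in any library, and FOSB, EGR3, EGR4, FOSL1, KLF2 and NPAS4 had one in vehicle 8 alone.

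Markers of other neurons and regions were partly present. Of the genes of other neurotransmitter identities, 7 of 16 had a baseline region (43.8%). CHAT and SLC18A3, the nested cholinergic genes, shared a region of 1319 bp with folds of 14.7, 11.2 and 32.1 in vehicle 6, 7 and 8. TPH2, of serotonin synthesis, had 7.37, 7.45 and 23.01, SLC17A8, a vesicular glutamate transporter gene, had 8.04, 9.93 and 21.8, and SLC17A6, SLC17A7 and GAD2 were also in the set. DBH, FEV and the serotonin and noradrenaline transporter genes SLC6A4 and SLC6A2 were not. Of the forebrain and hindbrain patterning genes 10 of 19 were in the set (52.6%), including the forebrain gene EMX2 (9.38, 4.34 and 14.8) and the hindbrain gene EGR2 (25.5, 17.4 and 46.0). Several of these genes have other roles, EGR2 being also an immediate early gene.

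Genes of other cell types had lower shares at the start window. Glial genes had 4 of 16 (25.0% against 50.7%): the glutamate transporter genes SLC1A2 (17.4, 10.5 and 30.4 in vehicle 6, 7 and 8) and SLC1A3 (14.7, 8.69 and 26.7), the oligodendrocyte lineage gene OLIG2 (12.1, 6.21 and 23.8) and PDGFRA (12.1, 10.5 and 27.1). A further 8 of the 16 glial genes had only a distal baseline region, against 10.8% of all protein-coding genes. The other 4 had neither, against 38.4% of all genes, so the lower glial share holds for the start window only. In vehicle 8 taken alone 11 of the 16 had a start region, where 76.1% of all genes had one. GFAP, MOG and the microglial genes AIF1, CSF1R and CX3CR1 had no region at the start in any library. Mesenchymal and endothelial genes had 3 of 13 (23.1%), KDR, PRRX1 and TWIST1, and COL1A2, COL3A1, DCN, CDH5, PECAM1, TEK and VWF had none in any library. Genes of other organs had 3 of 22 (13.6%), APOA1, CKM and SFTPC, with folds between 4.02 and 15.6. Olfactory receptor genes had 5 of 392 (1.28%), keratin genes 1 of 55 (1.82%), KRT86, and HOX genes 2 of 39 (5.13%), HOXA3 and HOXD9. In the organ and keratin lists, APOA1, SFTPC and KRT86 have no listed start, so their regions can also mark where transcription ends. HOX genes specify levels behind the midbrain, and HOXD9 had 4.02, 4.34 and 5.75. Clustered protocadherin genes had 5 of 53 (9.43%), among them the C-type genes PCDHAC1, PCDHAC2 and PCDHGC3. PCDHGA12 and PCDHGC5 have no listed start and were counted through the same region beyond their shared higher-coordinate end (chr5:141513530-141514674). The same 4 baseline regions outside start windows lay inside the overlapping bodies of many γ-cluster genes.

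**Figure D5:**
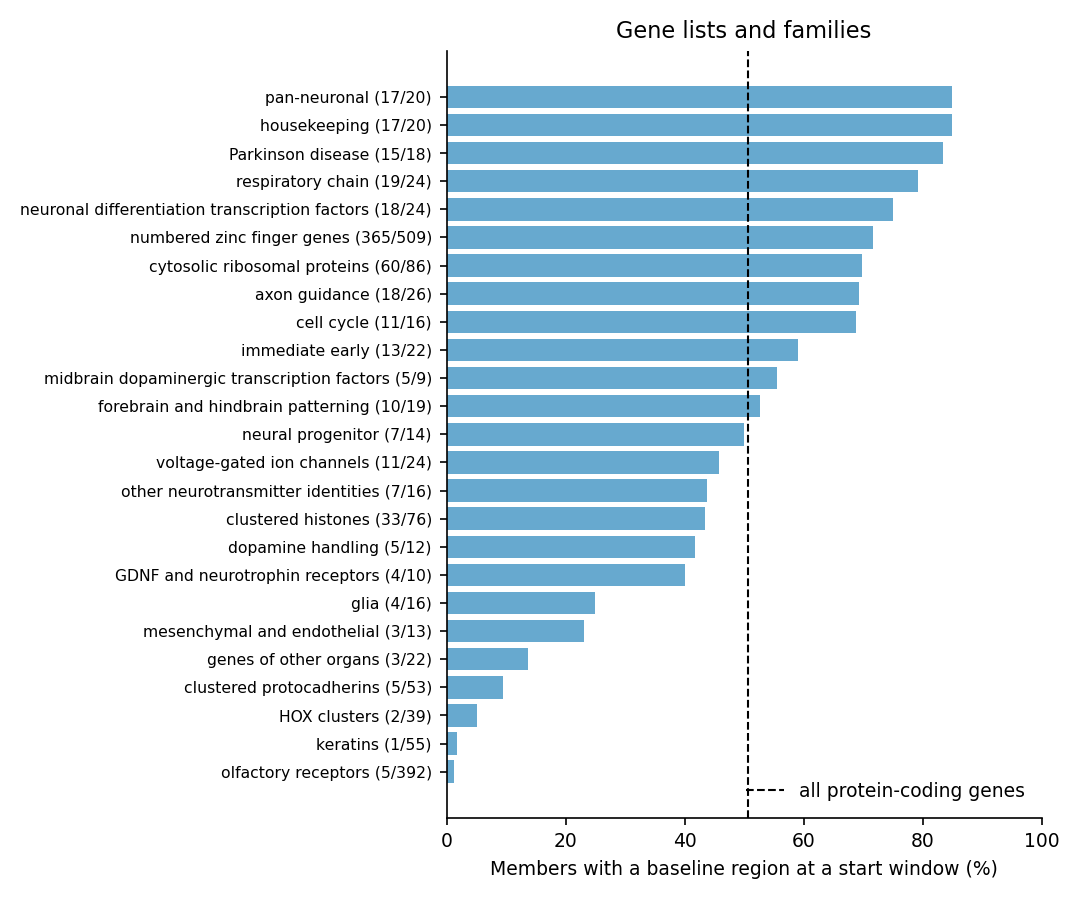
Percent of members with a baseline region at a start window (x axis) for each gene list or family, with the count of members in parentheses. The dashed line is the share of all protein-coding genes, 50.7%. Pan-neuronal, housekeeping and Parkinson disease genes lie furthest right and olfactory receptors and keratins furthest left.

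Distal baseline regions numbered 10955. Their median distance to the nearest start of a protein-coding gene was 44.6 kb, with an interquartile range of 12.6 to 133.8 kb. Within 10 kb lay 21.2%, within 100 kb 68.9%, and beyond 500 kb 6.38%. Starts of long non-coding RNA genes were within 1 kb of 654 distal regions (5.97%). Most genes with a distal region had few: 4596 genes were the nearest within 100 kb of at least 1, 2973 of exactly 1 and 144 of 5 or more. ZMIZ1, a transcriptional coregulator gene, was nearest to 18 and held 15 in its body. CXXC5 and IQSEC1 were nearest to 12 each, and NR2F2, RGS3 and ZNF423 to 10 each. NR2F2 encodes the orphan receptor COUP-TFII. The most body regions were in GSE1 with 20 and the teneurin gene TENM4 with 16, ahead of ZMIZ1, and CELF4 and ZNF423 had 14 each. LOC124903442 on chromosome 15 was nearest to 38, LOC101927345 to 17 and TPTE to 13, the last 2 of these genes on chromosome 21.

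Outside gene-poor stretches, strong distal regions included those inside ZNF254 (chr19:24033306-24034282) with folds of 34.2, 26.1 and 78.5 in vehicle 6, 7 and 8. The gene body region at chr6:56542535-56543201, nearest to DST, a cytoskeletal linker gene, had 28.2, 18.6 and 64.5. A region nearest to RPS29 had 29.5, 18.0 and 53.8 and one nearest to CHD8 29.5, 17.4 and 61.6. A region inside a gene 87.8 kb from the nearest start of PDE4D, a phosphodiesterase gene, had 38.9, 19.9 and 51.4.

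The highest folds of the set were not at genes. A region of 2104 bp beside the centromere of chromosome 16 (chr16:34586483-34588586) had folds of 394.1, 235.8 and 265.9 in vehicle 6, 7 and 8. Another of 6744 bp on the other side of that centromere (chr16:46385330-46392073) had 256.0, 201.7 and 221.9. Regions on the short arm of chromosome 21 (chr21:6368332-6372882) and in the centromeric part of chromosome 17 (chr17:22521367-22521562) had 194.4, 120.4 and 347.6, and 181.0, 166.9 and 153.7. Unlike at most promoters, vehicle 8 was not the highest library at 3 of these 4 regions. The longest stretch without a protein-coding gene on each chromosome, 6.54% of the length covered, held 315 baseline regions (1.49%), of which 80 were on chromosome 17 and 51 on chromosome 22. These regions had a median width of 578 bp, against 335 bp for other intergenic regions, and took 74 of the 199 places at 2 kb or more. Such stretches are rich in repeated DNA, and no source used here says whether the authors filtered regions there. The strong regions on the short arm of chromosome 21 lie outside the stretches so defined. Without these stretches the set held 20876 regions, of which 49.0% were promoter regions.

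Chromosomes differed in density. Chromosome 19, the most gene-dense, had 15.5 baseline regions per Mb and chromosome 13 the fewest with 3.46. The share of protein-coding genes with a baseline region at the start window was highest on chromosome 14 with 63.6% and lowest on chromosomes 17, 22 and 21 with 32.3%, 32.6% and 33.9%. Among listed promoter windows alone, the share on these 3 chromosomes was 32.0%, 31.4% and 28.0%, at a mean GC content of 62.9%, 65.4% and 60.1%. The low shares were thus seen under both counts, and their source was not tested.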

How the data were processed

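ATAC-seq peaks were called with MACS2 in each library separately, per the file headers. The submitters' processing notes name FastQC, Bowtie2, Picard and hg38. Caller settings, any Tn5 read shift and read totals are absent from these sources. Each deposited list holds, per peak, the fold enrichment at the summit, a ratio, with its −log10 p and −log10 q, as the authors' peak caller computed them. Wider calls in a deeper library reach more gene starts.

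Here 42, 46 and 48 peaks on other sequences, or sharing a position, were left out in vehicle 6, 7 and 8. Coordinates are 1-based on hg38. RefSeq (GRCh38.p14) gave 19974 protein-coding genes, 15812 with a start in its promoter table. For the other 4162 genes, among them all 715 of chromosome 8, either end was used. A region at such a gene can also mark where transcription ends. The strongest overlapping peak of a library gave a region its fold in that library. The 21191 regions took their folds from 20029 peaks of vehicle 6 and 19475 of vehicle 8, so neighbouring regions can share a fold.

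With a single group of 3 libraries, no test was made. The members, 18 gene lists (321 genes, all matched) and 7 gene families were chosen with earlier results of these data known. Named were the 4 markers, all dopaminergic and Parkinson disease genes, list members that differ from most of their list, and the 10 strongest, widest and most distal-rich items. Some genes that this rule names are not reported here. The other examples were chosen after their values were seen. Interval functions were checked on simulated regions with bedtools 2.31.1. Python 3.11.15, numpy 2.4.6, pandas 2.3.3 and matplotlib 3.10.9 were used.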

Additional observations from a re-analysis of the deposited data

How the results depend on the processing

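The number of baseline regions, their promoter share, their median width and the share of genes were recomputed under 6 other definitions of the set, with each library left out and, for the shares, with other windows. Requiring −log10 q of at least 5 left 12670 regions with a median width of 601 bp and marked 39.7% of genes, fewer because peaks were removed. Without a given library, the number ran from 21353 (without vehicle 8) to 40583 (without vehicle 7), the promoter share from 29.9% to 48.0%, the median width from 360 to 435 bp and the share of genes from 50.8% to 58.9%. The median width depended on the library and rule used: 622 bp with vehicle 6 intervals, 1136 bp with vehicle 8 intervals, 472 bp with lists of equal length, 447 bp with 50% of the interval covered and 450 bp with the summit inside, against 437 bp. The promoter share was 45.2% with windows of 500 bp, 52.1% with 2500 bp and 44.5% with either end of every gene. Of the 321 list genes, 57.3% had a region, and 57.3% to 67.9% with a library left out. Without vehicle 7, the midbrain transcription factors went from 5 to 8 members, olfactory receptors from 5 to 17 and HOX genes from 2 to 7. HOX genes went to 5 without vehicle 6, and olfactory receptors to 8 with windows of 2500 bp. Ordering by −log10 p gave the same 1000 strongest regions as ordering by fold. With a fixed step in each library both orders follow the pileup, so this is not an independent check. Leaving out the gene-free stretches and counting listed starts only were added after the data were seen. Depth limits what a missing region means, since vehicle 8 listed many that the other libraries did not. No paired analysis was possible because only the vehicle libraries are described.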
